A study of Hyphopichia burtonii with 8 samples.

Results

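The comparison set 1 M KCl, a salt, against 1 M sorbitol, an uncharged sugar alcohol, in Hyphopichia burtonii KJJ43, a wild-type yeast isolated from Nuruk, a Korean fermentation starter. Its members were the genes with at least 1 FPKM (fragments per kilobase, corrected for sequencing depth, the unit the values were taken to have) in 2 or more of the 4 KCl and sorbitol libraries. They numbered 5684 of the 6166 genes in the files, and 2325 of them had a symbol. Cells of the 2 media, with 2 libraries each, were grown for 1 h in YPD (yeast extract, peptone and glucose) with either solute, after inoculation of a preculture at an OD600 of 0.6. The series also holds 2 libraries from YPD with 1 M NaCl and 2 from YPD alone, its control medium, and these 4 entered the fit for the estimate of the spread. All 8 libraries came from the same strain, with total RNA taken from an OD of 5 of cells. The labels do not tell whether the duplicates were separate cultures, so a p-value here reflects the spread between libraries, which may be technical.

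Both solutes draw water from cells and both call for a compatible solute, which in yeasts is mostly glycerol or another polyol, made under the HOG (high-osmolarity glycerol) kinase pathway. Potassium chloride also brings ions: potassium is the main cation inside yeast cells, its uptake is driven by the proton pump of the plasma membrane, and antiporters expel its excess. Sorbitol carries no charge, but some yeasts take it up and oxidise it as a polyol. At the same molarity a dissociated salt has the higher osmolarity, so ions, chloride and osmolarity cannot be told apart between these media. Gene symbols were given by the RefSeq annotation of another strain, mostly after genes of other yeasts, and the roles below are those of the relatives, chiefly Saccharomyces cerevisiae and Candida albicans.

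Between the media 364 genes were called (limma, Benjamini-Hochberg adjusted p under 0.05), which is 6.4% of those tested, with 215 higher in KCl (3.78%) and 149 lower (2.62%). Called genes are said below to have risen or fallen in KCl relative to sorbitol, and differences are on the log2(FPKM + 1) scale with the standard error from limma. At an unadjusted p under 0.05 there were 1210 of the 5684 genes, both directions together, and the unadjusted counts of lists below are to be read beside this. Quantile normalization called 178 of the 5684 higher and 111 lower, the background for list counts under that setting. The numbers of called genes in each list below are to be read beside the shares of 3.78% higher and 2.62% lower. No list was tested as a set. Of the called genes 157 differed by at least 1 log2 unit and 27 by at least 2, and of all members 81.8% differed by less than 0.5. All 364 had both KCl libraries on the same side of both sorbitol libraries, a pattern that 2789 members showed (49.1%). The counts rested on every library of the comparison. They were 92 higher and 78 lower without KCl 1, 40 and 30 without KCl 2, 79 and 65 without sorbitol 1, 37 and 29 without sorbitol 2, 136 and 91 without NaCl 1, and 137 and 91 without NaCl 2. The fit of the 4 KCl and sorbitol libraries alone gave 44 higher and 46 lower, and 44 of the 364 genes kept the call on removal of any 1 library. Where a named gene lost its call in this way, the library or libraries that ended it stand in brackets below with the highest adjusted p from limma.

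**Figure D1:**
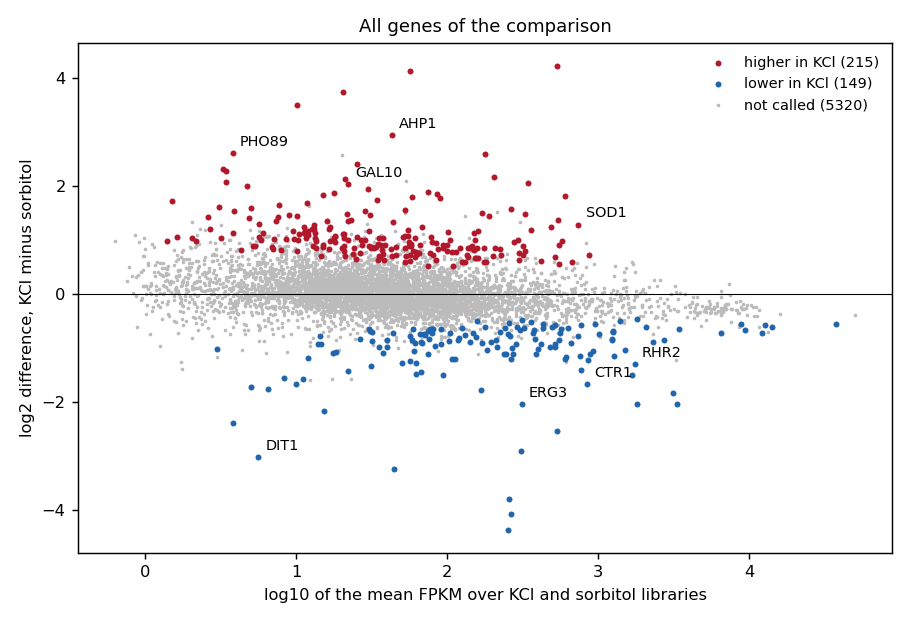
Log2 difference between KCl and sorbitol (vertical axis) against the log10 of the mean FPKM over the 4 libraries (horizontal axis), 1 point per gene, for 5684 genes. Red points are the 215 genes higher in KCl and blue points the 149 lower, and above 1000 FPKM no red point appears and the median is -0.27.

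The difference moved with the level of expression. Genes with a mean under 10 FPKM had a median log2 difference of 0.16 (924 genes), those from 10 to 100 FPKM 0.04 (3364 genes), those from 100 to 1000 FPKM -0.12 (1159 genes) and those above 1000 FPKM -0.27 (237 genes). The values are scaled to each library's depth, and KCl libraries summed to 1428950 and 1250656 FPKM, against sums of 1649003 and 1520928 for sorbitol. Quantile normalization brought these medians to between -0.04 and 0.03. The median over all members was 0.01. Relative depth, read from the steps between low values, was 1.80 in KCl 1 and 1 in KCl 2, against 1.15 in sorbitol 1 and 1.54 in sorbitol 2. A gene with 1 kb of usable length at 1 FPKM then held about 15.4 (KCl 2) to 27.8 (KCl 1) fragments. Across genes, which are not replicates, r between duplicates was 0.984 in KCl and 0.985 in sorbitol. Between the media r was nearly as high, from 0.967 (KCl 2 and sorbitol 1) to 0.981 (KCl 1 and sorbitol 1).

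Among called genes, YPD levels lay mostly between those of the 2 solutes. Of the 215 genes higher in KCl, 166 had their YPD mean between the KCl and sorbitol means, 44 had it below both and 5 above both. Of the 149 genes lower in KCl, 105 had it between, 31 above both and 13 below both. Over all 5684 members these counts were 1727 between, 1954 below both and 2003 above both. Called genes were chosen for a wide gap between KCl and sorbitol, and their median absolute log2 difference was 0.93. Of all members 81.8% differed by less than 0.5. A wide gap leaves more room for a YPD value, so the contrast with all members follows in part from this choice. YPD entered the choice only through the spread, and these positions are given without a test.

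The largest rises with a symbol were AHP1, PHO89, GAL10, ICL1, GAL1, MLS1, CDC21, GAL7, RFG1, GAL102, TEN1 and DDR48, and the largest falls DIT1, DIT2, ERG3, INO1, CTR1, UPC2, ITR1, RHR2, ZRT2, CTR2, HSP104 and ERG2. Among them stood the galactose enzymes GAL1, GAL7 and GAL10, both enzymes of the glyoxylate shunt, 3 sterol genes, both genes for inositol supply and 3 metal transporters. Of the 27 called genes that differed by at least 2 log2 units, 6 had a symbol.

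**Figure D2:**
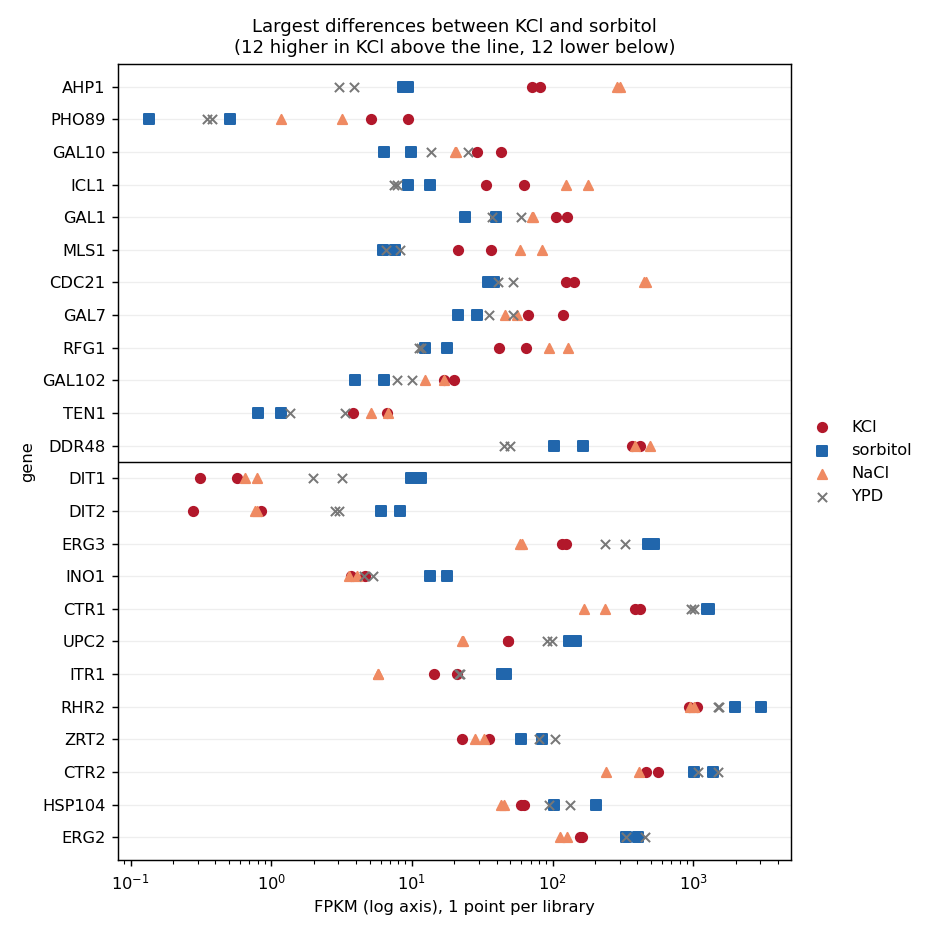
FPKM (log axis) in every library, 2 points per medium, for the 12 largest rises (above the line) and 12 largest falls (below it) with a symbol. The red KCl circles stand apart from the blue sorbitol squares in all 24 rows, which was a condition for picking these genes. NaCl triangles and YPD crosses show the other media.

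Genes of glycerol and polyol metabolism, which make or use compatible solutes, moved in both directions. Of 12 measured, ARD rose, RHR2, XYL2 and GPD1 fell, and 8 were not called, with a list median of 0.08. RHR2, the phosphatase that releases glycerol from glycerol phosphate, had 929 and 1066 FPKM in KCl against 1987 and 3013 in sorbitol (log2 difference -1.30 ± 0.19, adjusted p = 0.0095). Both KCl values lay below the 1520.4 and 1493 FPKM of the YPD libraries and both sorbitol values above them. GPD1, the glycerol phosphate dehydrogenase that feeds RHR2, had 964 and 930.2 FPKM in KCl against 1385 and 1728 in sorbitol (log2 difference -0.71 ± 0.14, adjusted p = 0.024). YPD lay between them at 1202 and 1301 FPKM for GPD1.

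XYL2, xylitol dehydrogenase, which in relatives also acts on sorbitol, had 121 and 115 FPKM in KCl against 209 and 237 in sorbitol (log2 difference -0.91 ± 0.13, adjusted p = 0.0094). ARD, an arabitol dehydrogenase, ran the other way with 902 and 639 FPKM in KCl against 401 and 366 in sorbitol (log2 difference 0.99 ± 0.19, adjusted p = 0.021), beside 704 and 712 in NaCl and 370.2 and 472 in YPD. Its sorbitol and YPD values overlapped, and both KCl values were above them. XKS1, xylulokinase, was at 143 and 139 FPKM in KCl against 106 and 91.2 in sorbitol (log2 difference 0.51, adjusted p = 0.059), a difference called under quantile normalization. The aldose reductase gene GRE3 (0.43), the glycerol permease gene HGT10 (-0.42), the dihydroxyacetone kinase gene DAK2 (0.22), the glycerol kinase gene GUT1 (0.17), ALD6 (0.09) and GUT2 (0.07) were not called, their adjusted p lying between 0.14 and 0.84. GPD2 differed more between replicates than between media, with 106 and 370.4 FPKM in KCl against 238 and 518 in sorbitol. Removal of 1 library ended the call of GPD1 (KCl 1, KCl 2 or sorbitol 2, adjusted p up to 0.14), XYL2 (KCl 2 or sorbitol 2, adjusted p up to 0.062) and ARD (KCl 1, sorbitol 1 or sorbitol 2, adjusted p up to 0.11). The calls of RHR2 and ARD were also lost in the fit of the 4 KCl and sorbitol libraries alone. The call of GPD1 was also lost in the fit of the 4 KCl and sorbitol libraries alone and under quantile normalization.

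**Figure D3:**
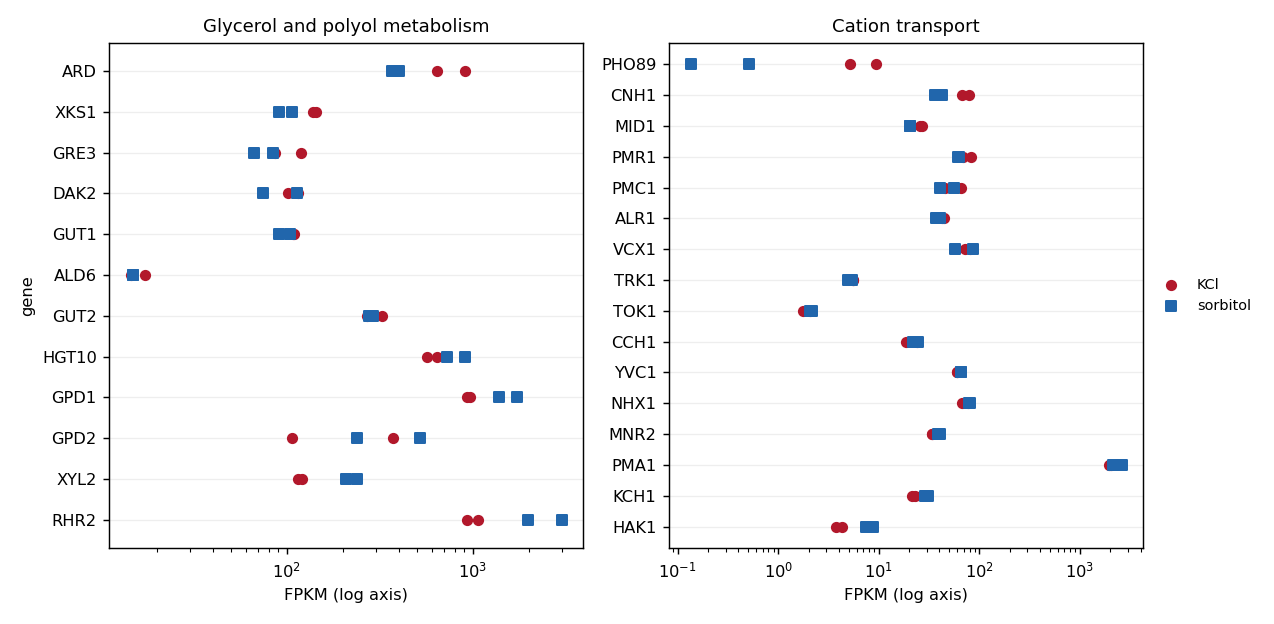
FPKM (log axis) in the KCl (red circles) and sorbitol (blue squares) libraries for the 12 glycerol and polyol genes (left) and 16 cation transport genes (right), sorted by log2 difference. ARD, PHO89 and CNH1 are the called genes higher in KCl, and RHR2, XYL2 and GPD1 those lower.

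The HOG kinase gene HOG1 had 130.4 and 126 FPKM in KCl against 118 and 126 in sorbitol (log2 difference 0.07 ± 0.13, adjusted p = 0.80). Of 24 genes on the HOG pathway list 1 was called, OSM1, with 282 and 296 FPKM in KCl against 501 and 603 in sorbitol (log2 difference -0.93 ± 0.14, adjusted p = 0.0100). In S. cerevisiae OSM1 encodes a fumarate reductase and not a pathway component. The list median was -0.14, and -0.24 under quantile normalization. Trehalose, a protectant sugar, is made by TPS1 and TPS2, and both fell: TPS1 had 204 and 175 FPKM in KCl against 307 and 325 in sorbitol (-0.74 ± 0.13, adjusted p = 0.017), and TPS2 had 294 and 251 against 454 and 514 (-0.83 ± 0.13, adjusted p = 0.012). The other 11 of 13 trehalose and glycogen genes were not called, and the list median was 0.23, on the opposite side to both called genes, and quantile normalization called 1 higher beside these 2. With 1 library left out the call was lost for OSM1 and TPS2 (KCl 2 or sorbitol 2, adjusted p up to 0.085) and TPS1 (KCl 2, sorbitol 1 or sorbitol 2, adjusted p up to 0.11). The calls of TPS1 and TPS2 were also lost in the fit of the 4 KCl and sorbitol libraries alone.

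Among 16 cation transport genes PHO89 and CNH1 rose and none fell (limma, 1 lower at an unadjusted p under 0.05), with a list median of -0.01. PHO89, a phosphate transporter coupled to sodium in S. cerevisiae, had 9.39 and 5.13 FPKM in KCl against 0.512 and 0.135 in sorbitol (log2 difference 2.61 ± 0.37, adjusted p = 0.0095), and 3.18 and 1.17 in NaCl and 0.377 and 0.352 in YPD. It was under 1 FPKM in both sorbitol and both YPD libraries, and its log2 difference was 4.22 with 0.1 FPKM added and 1.18 with 5 FPKM added. CNH1, the plasma membrane antiporter that expels sodium and potassium in exchange for protons, had 66.9 and 79.4 FPKM in KCl against 35.9 and 42.0 in sorbitol (log2 difference 0.89 ± 0.16, adjusted p = 0.017). All other media had lower CNH1 values than KCl, with 56.1 and 51.5 FPKM in NaCl and 32.3 and 32.0 in YPD.

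HAK1, the high-affinity potassium transporter, had 4.26 and 3.75 FPKM in KCl against 8.77 and 7.54 in sorbitol, and 62.5 and 58.1 in NaCl and 20.4 and 10.8 in YPD. Its KCl values were the lowest of the 8 libraries, but the difference from sorbitol was not called (-0.87 ± 0.27, adjusted p = 0.10), though it was without YPD 1 (0.044) or YPD 2 (0.043). TRK1, another potassium transporter, had 5.53 and 5.50 FPKM in KCl against 5.39 and 4.96 in sorbitol (0.08 ± 0.19, adjusted p = 0.87), and quantile normalization turned its sign. The proton pump gene PMA1 was at 1962 and 2019 FPKM in KCl against 2153 and 2599.9 in sorbitol (-0.25 ± 0.13, adjusted p = 0.31), and its sign also turned under quantile normalization. The potassium channel gene TOK1 (-0.10), KCH1 (-0.42), the endosomal antiporter gene NHX1 (-0.14), the calcium pumps PMC1 (0.19) and PMR1 (0.29), the vacuolar calcium exchanger VCX1 (0.13), the calcium channel subunits CCH1 (-0.13) and MID1 (0.34), the vacuolar channel YVC1 (-0.14) and the magnesium transporters ALR1 (0.16) and MNR2 (-0.22) were not called. Of 11 genes listed under potassium and calcineurin signalling 0 were called by limma (unadjusted p under 0.05 in 0 higher and 2 lower genes, median -0.20). Beside CMD1, CNB1, CRZ1, RCN1 and PTK2 this list held RIM8, RIM9, RIM13, RIM20, RIM21 and RIM101, so it does not speak for calcineurin genes alone. Of 13 genes of the vacuolar proton pump 0 were called (0 and 0 at an unadjusted p under 0.05, median 0.05 and under quantile normalization 0.11). In the phosphate list of 14, PHO89 rose and PHM7, a membrane protein gene under phosphate control in S. cerevisiae, fell to 172 and 168 FPKM in KCl, against 270.2 and 284 in sorbitol (-0.70 ± 0.12, adjusted p = 0.014). Calls did not survive the removal of 1 library for PHO89 (sorbitol 2, adjusted p up to 0.055), CNH1 (KCl 2, sorbitol 1 or sorbitol 2, adjusted p up to 0.11) and PHM7 (KCl 1, KCl 2, sorbitol 1 or sorbitol 2, adjusted p up to 0.089). The calls of CNH1 and PHM7 were also lost in the fit of the 4 KCl and sorbitol libraries alone.

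Sterol synthesis had the most falls of any list: of 30 genes 10 fell, 20 were not called and none rose (limma; unadjusted p under 0.05 in 19, all lower). The list median was -0.44, against 0.01 over all members and -0.12 over members from 100 to 1000 FPKM. The median level of the sterol genes was 223 FPKM. Under quantile normalization the list median was -0.32 and 9 were called lower. ERG3, a sterol desaturase, had 125 and 117 FPKM in KCl against 526 and 477 in sorbitol (log2 difference -2.04 ± 0.17, adjusted p = 5.6e-04). YPD lay between them at 326 and 236 FPKM and NaCl below all at 60.1 and 59.0. UPC2, the transcription factor that activates sterol genes, had 48.4 and 48.5 FPKM in KCl against 131 and 148 in sorbitol (-1.50 ± 0.14, adjusted p = 9.6e-04), and 98.4 and 91.5 in YPD. ERG2, a sterol isomerase, had 162 and 157 FPKM in KCl against 408 and 334 in sorbitol (-1.21 ± 0.18, adjusted p = 0.0095), and the sterol reductase gene ERG4 407 and 341 against 886 and 793 (-1.17 ± 0.18, adjusted p = 0.0100). The YPD values of 456 and 334 FPKM for ERG2 overlapped those of sorbitol, as did the YPD values of 913 and 653 for ERG4. The number of sterol genes that fell was 6 without KCl 2. On leaving out 1 library the call did not hold for ERG2 (KCl 2, adjusted p up to 0.056) and ERG4 (KCl 2 or sorbitol 1, adjusted p up to 0.067).

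Inositol, a precursor of membrane lipids and signalling molecules, is made by INO1 and imported by ITR1, and both fell. INO1 had 3.72 and 4.67 FPKM in KCl against 13.5 and 17.7 in sorbitol (log2 difference -1.67 ± 0.22, adjusted p = 0.0058). The other media lay nearer to KCl than to sorbitol, at 3.60 and 4.08 FPKM in NaCl and 5.33 and 4.57 in YPD. ITR1 had 20.8 and 14.4 FPKM in KCl against 46.8 and 43.4 in sorbitol (-1.33 ± 0.20, adjusted p = 0.0100), and 22.0 and 21.5 in YPD. In the same list of 24 lipid genes OPI3, a methyltransferase of phosphatidylcholine synthesis, rose to 10.1 and 12.9 FPKM in KCl, against 2.81 and 4.62 in sorbitol (1.42 ± 0.29, adjusted p = 0.027, and 0.92 with 5 FPKM added). YPD held OPI3 at 7.44 and 11.9 FPKM, which overlapped KCl and lay above sorbitol. GDE1, which breaks down glycerophosphocholine, rose to 15.7 and 16.6 FPKM in KCl, against 5.19 and 7.53 in sorbitol (1.24 ± 0.21, adjusted p = 0.014). With these 2 rises stood 3 falls and a list median of 0.11. The threshold was missed without 1 library for ITR1 (KCl 2 or sorbitol 2, adjusted p up to 0.053), OPI3 (KCl 1, KCl 2, sorbitol 1 or sorbitol 2, adjusted p up to 0.14) and GDE1 (KCl 1, KCl 2 or sorbitol 1, adjusted p up to 0.084). The calls of ITR1 and GDE1 were also lost in the fit of the 4 KCl and sorbitol libraries alone. The call of OPI3 was also lost in the fit of the 4 KCl and sorbitol libraries alone and under quantile normalization.

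Of 25 metal uptake genes measured 3 rose and 3 fell, where 3.78% of all members were called higher and 2.62% lower. Their median of 0.05 turned to -0.09 under quantile normalization, where 0 were called higher and 2 lower. The copper transporter gene CTR1 had 415 and 388 FPKM in KCl against 1253 and 1299.6 in sorbitol (log2 difference -1.67 ± 0.17, adjusted p = 0.0015), and CTR2, another copper transporter gene, 461 and 562 against 1014 and 1389.5 (-1.22 ± 0.28, adjusted p = 0.041). YPD held CTR1 at 1014 and 965 FPKM, below sorbitol and above KCl. The zinc transporters moved apart: ZRT2 had 22.9 and 35.1 FPKM in KCl against 59.4 and 83.6 in sorbitol (-1.28 ± 0.25, adjusted p = 0.024), while ZRT1 was low throughout, with 1.86 and 2.49 FPKM in KCl against 0.647 and 0.579 in sorbitol (0.97 ± 0.23, adjusted p = 0.047). With 0.1 FPKM added the difference of ZRT1 was 1.66 and with 5 FPKM added it was 0.35. All 3 rises were lost on removal of any 1 of the 8 libraries. Fits without 1 library did not call CTR2 (KCl 1, KCl 2, sorbitol 1, sorbitol 2, YPD 1 or YPD 2, adjusted p up to 0.19), ZRT2 (KCl 1 or sorbitol 2, adjusted p up to 0.13) and ZRT1 (any 1 of the 8 libraries, adjusted p up to 0.22). The call of CTR2 was also lost under quantile normalization and without the intensity trend. The call of ZRT2 was also lost in the fit of the 4 KCl and sorbitol libraries alone. The call of ZRT1 was also lost under quantile normalization, in the fit of the 4 KCl and sorbitol libraries alone, with 5 FPKM added, with a filter of 5 FPKM and under median scaling.

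AHP1, a thioredoxin peroxidase, was the largest rise with a symbol, with 72.0 and 81.0 FPKM in KCl against 9.45 and 8.70 in sorbitol (log2 difference 2.94 ± 0.16, adjusted p = 8.1e-05). YPD was lower still at 3.06 and 3.87 FPKM and NaCl highest at 289 and 302. SOD1, the cytosolic copper and zinc superoxide dismutase, had 1088 and 1003 FPKM in KCl against 411 and 448 in sorbitol (1.28 ± 0.13, adjusted p = 0.0015), and 519.6 and 603 in YPD. Other peroxidases fell: GPX3, a thiol peroxidase, had 72.7 and 62.6 FPKM in KCl against 141 and 173 in sorbitol (-1.20 ± 0.19, adjusted p = 0.012), and CCP1, cytochrome c peroxidase, 315 and 335 against 659 and 622 (-0.98 ± 0.13, adjusted p = 0.0074). Of 19 genes of oxidative stress defence these 2 rises and 2 falls were the only calls, and the list median was 0.03. Quantile normalization called 4 higher and 2 lower, with a median of 0.071.

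Of 23 heat shock and chaperone genes 1 rose and 2 fell, with a median of -0.36 that was -0.17 under quantile normalization. DDR48, a stress protein gene first known from DNA damage, had 417 and 364 FPKM in KCl against 165 and 103 in sorbitol (1.58 ± 0.22, adjusted p = 0.0094), and 44.9 and 49.6 in YPD, so both solutes stood above YPD. HSP78, a mitochondrial chaperone, had 50.8 and 41.8 FPKM in KCl against 83.4 and 121 in sorbitol (-1.11 ± 0.22, adjusted p = 0.024). HSP104, which dissolves protein aggregates, had 63.0 and 60.0 FPKM in KCl against 102 and 202 in sorbitol (-1.21 ± 0.30, adjusted p = 0.0496). Its value in sorbitol 1 lay between the 93.8 and 134 FPKM of YPD and that in sorbitol 2 above both. The difference of HSP104 was -0.72 without sorbitol 2. Removal of 1 library ended the call of GPX3 (KCl 2 or sorbitol 2, adjusted p up to 0.084), HSP78 (KCl 1, KCl 2 or sorbitol 2, adjusted p up to 0.14) and HSP104 (KCl 1, KCl 2, sorbitol 2, NaCl 1, NaCl 2, YPD 1 or YPD 2, adjusted p up to 0.20). The call of HSP78 was also lost in the fit of the 4 KCl and sorbitol libraries alone. The call of HSP104 was also lost in the fit of the 4 KCl and sorbitol libraries alone, with 5 FPKM added, without a filter, with the filter over all 8 libraries, under quantile normalization and without the intensity trend.

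The galactose genes GAL1 (galactokinase), GAL7 (uridylyltransferase) and GAL10 (epimerase) rose together. GAL1 had 106 and 128 FPKM in KCl against 39.7 and 24.0 in sorbitol (log2 difference 1.88 ± 0.28, adjusted p = 0.0100), and 60.1 and 37.0 in YPD. GAL10 had 29.1 and 42.9 FPKM in KCl against 9.85 and 6.34 in sorbitol (2.03 ± 0.31, adjusted p = 0.011). For GAL7 the values were 66.8 and 118 FPKM in KCl against 28.9 and 21.4 in sorbitol (1.79 ± 0.30, adjusted p = 0.014), and for GAL102 17.0 and 19.8 against 6.37 and 3.96 (1.68 ± 0.26, adjusted p = 0.010). These 4 were the calls among 22 genes of sugar transport and galactose (median 0.38, and 0.21 under quantile normalization). The KCl values were the highest of the 4 media for GAL1, GAL7 and GAL10, with NaCl at 71.8 and 72.9 FPKM for GAL1. Sorbitol was the lowest for GAL7, GAL10 and GAL102, and overlapped YPD for GAL1. With 1 library left out the call was lost for GAL1, GAL10, GAL7 and GAL102 (KCl 2 or sorbitol 2, adjusted p up to 0.080).

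The glyoxylate cycle, which lets cells build sugar from acetate units, rose at both of its own steps. ICL1, isocitrate lyase, had 33.8 and 62.9 FPKM in KCl against 9.39 and 13.5 in sorbitol (1.94 ± 0.31, adjusted p = 0.012), and MLS1, malate synthase, 21.4 and 36.3 against 6.25 and 7.60 (1.87 ± 0.28, adjusted p = 0.0100). YPD held ICL1 at 7.48 and 7.83 FPKM and NaCl at 125 and 179.7. IDP1, an isocitrate dehydrogenase, had 275 and 224 FPKM in KCl against 88.5 and 87.2 in sorbitol (1.49 ± 0.14, adjusted p = 0.0012), and the succinate and fumarate carrier gene SFC1 6.03 and 8.95 against 2.50 and 1.84 (1.41 ± 0.25, adjusted p = 0.018). Of 25 genes of the glyoxylate cycle, gluconeogenesis and fatty acid oxidation 5 rose and none fell (limma, 1 lower at an unadjusted p under 0.05), with a median of 0.59, the highest of the 29 lists. Under quantile normalization it was 0.40, below the 0.46 of the DNA replication list. The rises became 1 without KCl 2, and 3 without sorbitol 1 or sorbitol 2. With 5 FPKM added the difference of SFC1 was 0.79. Calls did not survive the removal of 1 library for ICL1 (KCl 2 or sorbitol 1, adjusted p up to 0.057), MLS1 (KCl 2, adjusted p up to 0.055) and SFC1 (KCl 2 or sorbitol 2, adjusted p up to 0.10). The calls of ICL1 and SFC1 were also lost in the fit of the 4 KCl and sorbitol libraries alone.

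Glycolysis and fermentation genes had the lowest median of the lists, -0.49. Under quantile normalization it was -0.16, above the -0.32 of sterol synthesis, which was then the lowest. Of 25 measured 7 fell and 1 rose, and 15 had a mean above 1000 FPKM, the range in which all members had a median of -0.27. PFK1 and PFK2, the subunits of phosphofructokinase, both fell. PFK1 had 1992 and 1878 FPKM in KCl against 3429 and 3539 in sorbitol (-0.85 ± 0.13, adjusted p = 0.0100), and PFK2 1868 and 1371 against 2861 and 3073 (-0.89 ± 0.16, adjusted p = 0.020, with a difference of -0.59 under quantile normalization). GPM2, related to phosphoglycerate mutase, had 267 and 255 FPKM in KCl against 451 and 624 in sorbitol (-1.02 ± 0.17, adjusted p = 0.014). The alcohol dehydrogenase gene ADH4 rose to 21.1 and 18.3 FPKM in KCl, against 10.8 and 9.92 in sorbitol (0.86 ± 0.17, adjusted p = 0.024). The falls became 0 without KCl 2 or sorbitol 2, 2 without sorbitol 1, and 3 without NaCl 1 or NaCl 2. On leaving out 1 library the call did not hold for PFK1 and GPM2 (KCl 2 or sorbitol 2, adjusted p up to 0.082), PFK2 (KCl 2, sorbitol 1 or sorbitol 2, adjusted p up to 0.11) and ADH4 (KCl 1, KCl 2, sorbitol 1, sorbitol 2, NaCl 1 or NaCl 2, adjusted p up to 0.12). The calls of PFK2 and GPM2 were also lost in the fit of the 4 KCl and sorbitol libraries alone. The call of ADH4 was also lost in the fit of the 4 KCl and sorbitol libraries alone and under quantile normalization.

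In nitrogen source uptake and use, a list of 32 with a median of 0.40, 3 genes rose and 1 fell. The glycine cleavage genes GCV1 and GCV2 had 493 and 524 and 250.5 and 248 FPKM in KCl against 321 and 345 and 136 and 171 in sorbitol (0.61 ± 0.12 and 0.71 ± 0.15, adjusted p = 0.024 and 0.031). UGA2, of GABA breakdown, had 37.5 and 34.5 FPKM in KCl against 17.1 and 20.6 in sorbitol (0.90 ± 0.18, adjusted p = 0.026). CHA1, which breaks down serine and threonine, had 144 and 154 FPKM in KCl against 289.9 and 362 in sorbitol (-1.12 ± 0.23, adjusted p = 0.028), with both media below the 733 and 441 FPKM of YPD. Among 18 amino acid and peptide transport genes GAP4, a permease gene, fell to 29.6 and 27.1 FPKM in KCl, against 50.6 and 53.3 in sorbitol (-0.85 ± 0.18, adjusted p = 0.031), and the list median of 0.07 turned to -0.02 under quantile normalization. The rises of the nitrogen list became 0 without KCl 2, sorbitol 1 or sorbitol 2, and 1 without NaCl 1 or NaCl 2. The threshold was missed without 1 library for GCV1 (KCl 1, KCl 2, sorbitol 1 or sorbitol 2, adjusted p up to 0.13), GCV2, UGA2 and CHA1 (KCl 1, KCl 2, sorbitol 1, sorbitol 2, NaCl 1 or NaCl 2, adjusted p up to 0.15) and GAP4 (KCl 1, KCl 2, sorbitol 1, sorbitol 2, YPD 1 or YPD 2, adjusted p up to 0.15). The calls of GCV1, UGA2 and GAP4 were also lost in the fit of the 4 KCl and sorbitol libraries alone. The call of GCV2 was also lost in the fit of the 4 KCl and sorbitol libraries alone and without the intensity trend. The call of CHA1 was also lost under quantile normalization.

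Of 26 genes of sulfate assimilation and methionine MET3, the first enzyme of sulfate assimilation, rose to 90.1 and 100.3 FPKM in KCl, against 35.2 and 44.8 in sorbitol (1.24 ± 0.19, adjusted p = 0.0100). Both media were above the 8.88 and 11.7 FPKM of YPD. SAM2, which makes S-adenosylmethionine, had 513 and 405 FPKM in KCl against 817 and 904 in sorbitol (-0.91 ± 0.15, adjusted p = 0.012), and the transcription factor gene CBF1 88.3 and 84.3 against 151 and 157 (-0.83 ± 0.15, adjusted p = 0.021). The list median of -0.02 turned to 0.05 under quantile normalization, where 2 were higher and 2 lower. Arginine synthesis and breakdown had 0 of 11 called by limma (unadjusted p under 0.05 in 1 higher and 0 lower genes). In the other 51 genes of amino acid synthesis (median 0.01, with 5 higher and 0 lower under quantile normalization) LEU2, of leucine synthesis, rose to 60.9 and 76.3 FPKM in KCl, against 29.7 and 35.6 in sorbitol (1.04 ± 0.18, adjusted p = 0.016), while HIS3, of histidine synthesis, rose to 144 and 169, against 105 and 103 (0.59 ± 0.13, adjusted p = 0.036). ARO2, chorismate synthase, fell to 814 and 723 FPKM in KCl, against 1141 and 1106 in sorbitol (-0.55 ± 0.12, adjusted p = 0.031, with a difference of -0.31 under quantile normalization). Fits without 1 library did not call MET3 (KCl 2, adjusted p up to 0.068), SAM2 (KCl 2 or sorbitol 2, adjusted p up to 0.080) and CBF1 (KCl 1, KCl 2, sorbitol 1 or sorbitol 2, adjusted p up to 0.11). The same held for LEU2 (KCl 2, sorbitol 1 or sorbitol 2, adjusted p up to 0.10) and HIS3 and ARO2 (any 1 of the 8 libraries, adjusted p up to 0.21). The calls of SAM2, CBF1 and LEU2 were also lost in the fit of the 4 KCl and sorbitol libraries alone. The call of HIS3 was also lost in the fit of the 4 KCl and sorbitol libraries alone and without the intensity trend. The call of ARO2 was also lost in the fit of the 4 KCl and sorbitol libraries alone, without the intensity trend and under quantile normalization.

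Of 60 genes of DNA replication, histones and the cell cycle 6 rose and none fell (limma, 0 lower at an unadjusted p under 0.05), with a median of 0.40. CDC21, thymidylate synthase, had 143 and 125 FPKM in KCl against 38.1 and 34.5 in sorbitol (log2 difference 1.85 ± 0.16, adjusted p = 6.6e-04), and 41.1 and 52.3 in YPD. PRI2, a DNA primase subunit, had 18.9 and 31.2 FPKM in KCl against 10.7 and 11.4 in sorbitol (1.07 ± 0.24, adjusted p = 0.035), the polymerase gene POL1 22.8 and 25.3 against 11.2 and 11.4 (1.02 ± 0.20, adjusted p = 0.025), and the ribonucleotide reductase gene RNR21 214 and 326 against 142 and 152 (0.84 ± 0.19, adjusted p = 0.041). The rises became 1 without KCl 2, sorbitol 1 or sorbitol 2, and 3 without NaCl 1 or NaCl 2, and RNR21 differed by 0.54 without KCl 2. TEN1, of the telomere cap, was low, with 3.81 and 6.60 FPKM in KCl against 0.808 and 1.18 in sorbitol (1.61 ± 0.35, adjusted p = 0.033, and 0.75 with 5 FPKM added). Removal of 1 library ended the call of PRI2 and RNR21 (KCl 2, sorbitol 1, sorbitol 2, NaCl 1, NaCl 2, YPD 1 or YPD 2, adjusted p up to 0.18), POL1 (KCl 1, KCl 2, sorbitol 1 or sorbitol 2, adjusted p up to 0.13) and TEN1 (KCl 2, sorbitol 1, sorbitol 2, NaCl 1 or NaCl 2, adjusted p up to 0.17). The calls of PRI2 and POL1 were also lost under quantile normalization and in the fit of the 4 KCl and sorbitol libraries alone. The call of RNR21 was also lost under quantile normalization, in the fit of the 4 KCl and sorbitol libraries alone and without the intensity trend. The call of TEN1 was also lost in the fit of the 4 KCl and sorbitol libraries alone and with a filter of 5 FPKM.

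Cell wall genes numbered 51, of which 4 rose and 2 fell, with a median of 0.00 that was 0.072 under quantile normalization, where 4 were higher and 0 lower. SAP7, named after a secreted aspartyl protease of C. albicans, had 73.7 and 84.6 FPKM in KCl against 25.9 and 26.9 in sorbitol (1.54 ± 0.14, adjusted p = 9.6e-04). XOG1, an exoglucanase, had 55.9 and 87.6 FPKM in KCl against 28.9 and 37.4 in sorbitol (1.07 ± 0.23, adjusted p = 0.031), ECM331 206 and 204 against 112 and 93.0 (1.00 ± 0.17, adjusted p = 0.016) and ACF2, an endoglucanase, 54.9 and 40.9 against 23.1 and 27.0 (0.90 ± 0.18, adjusted p = 0.026). The 2 falls were smaller than these rises. PIR1, 1 of the 2, had 985 and 797 FPKM in KCl against 1664 and 1505 in sorbitol (-0.84 ± 0.16, limma adjusted p = 0.023). Its call was lost without KCl 2, sorbitol 1 or sorbitol 2 and under quantile normalization. For ECM331 both solutes lay above the 46.3 and 62.4 FPKM of YPD, while for XOG1 the YPD values of 66.4 and 60.1 lay above sorbitol and within the span of KCl. Of 26 genes of mating, hyphal growth and adhesion 1 rose, STE18, the gamma subunit of the mating G protein, with 13.2 and 13.4 FPKM in KCl against 3.70 and 7.57 in sorbitol (1.17 ± 0.28, adjusted p = 0.046, and a difference of 0.74 without sorbitol 1). Outside these lists RFG1, a repressor of filamentous growth in C. albicans, had 41.4 and 64.9 FPKM in KCl against 17.7 and 12.3 in sorbitol (1.74 ± 0.26, adjusted p = 0.0100), beside 94.9 and 129 in NaCl and 11.3 and 11.6 in YPD. The rises of the cell wall list became 2 without KCl 1, KCl 2, sorbitol 1, NaCl 1 or NaCl 2, and 1 without sorbitol 2, and its falls became 0 without KCl 2, sorbitol 1 or sorbitol 2 and 1 without KCl 1, YPD 1 or YPD 2. With 1 library left out the call was lost for XOG1 (KCl 2, sorbitol 1, sorbitol 2, NaCl 1, NaCl 2, YPD 1 or YPD 2, adjusted p up to 0.15), ECM331 (KCl 1, KCl 2 or sorbitol 2, adjusted p up to 0.099) and ACF2 (KCl 1, sorbitol 1, sorbitol 2, NaCl 1 or NaCl 2, adjusted p up to 0.12). The same held for STE18 (KCl 1, KCl 2, sorbitol 1, NaCl 1, NaCl 2, YPD 1 or YPD 2, adjusted p up to 0.18) and RFG1 (KCl 2 or sorbitol 2, adjusted p up to 0.061). The calls of XOG1 and ACF2 were also lost in the fit of the 4 KCl and sorbitol libraries alone. The call of STE18 was also lost in the fit of the 4 KCl and sorbitol libraries alone, without a filter, under quantile normalization and without the intensity trend.

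The protein synthesis and degradation lists had few calls and medians a little below 0. Of 66 cytosolic ribosomal protein genes 1, RPS30, fell, with 1173 and 1139 FPKM in KCl against 1719 and 1579.9 in sorbitol (-0.51 ± 0.12, adjusted p = 0.046, and -0.26 under quantile normalization). Their median of -0.27 turned to 0.03 under quantile normalization, and 63 of the 66 had a mean above 1000 FPKM. Of 82 ribosome biogenesis genes 2 fell (median -0.23), both of the core of box C/D particles that modify ribosomal RNA: SIK1 had 412 and 419 FPKM in KCl against 642 and 594 in sorbitol (-0.57 ± 0.12, adjusted p = 0.027) and NOP5 257 and 267 against 378 and 356 (-0.48 ± 0.12, adjusted p = 0.049). Translation factors and tRNA synthetases had 0 of 44 called by limma (unadjusted p under 0.05 in 0 higher and 11 lower genes, median -0.28 and under quantile normalization -0.13), mitochondrial ribosomal proteins 0 of 17 (0 and 2, median -0.29) and the proteasome 0 of 27 (0 and 0, median -0.12 and under quantile normalization -0.075). The tricarboxylic acid cycle and respiration had 0 of 45 called by limma (unadjusted p under 0.05 in 1 higher and 6 lower genes), and their median of -0.20 turned to 0.03 under quantile normalization, where 1 was called higher. Calls did not survive the removal of 1 library for RPS30 and NOP5 (any 1 of the 8 libraries, adjusted p up to 0.20) and SIK1 (KCl 1, KCl 2, sorbitol 1, sorbitol 2, NaCl 1 or NaCl 2, adjusted p up to 0.14). The calls of RPS30, SIK1 and NOP5 were also lost under quantile normalization, in the fit of the 4 KCl and sorbitol libraries alone and without the intensity trend.

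**Figure D4:**
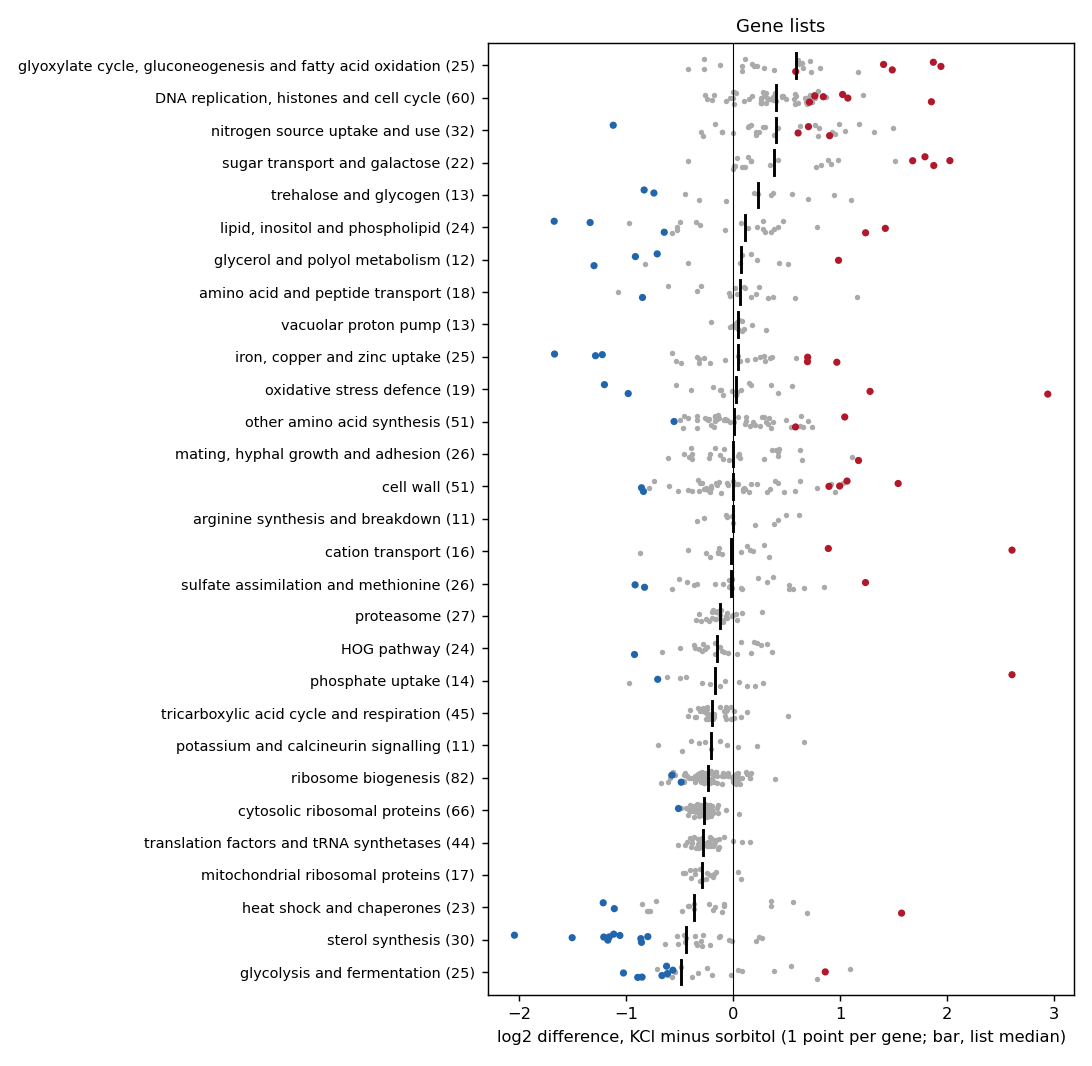
Log2 difference between KCl and sorbitol for the members of the 29 gene lists, 1 point per gene, with the list median as a black bar and the number of measured members in brackets. Red and blue points are called genes, higher and lower in KCl, and medians run from 0.59 (glyoxylate cycle, gluconeogenesis and fatty acid oxidation) to -0.49 (glycolysis and fermentation).

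The widest differences were in genes without a symbol, whose functions the annotation used here does not give. HYPBUDRAFT_152633 had 1075 and 952 FPKM in KCl against 39.8 and 71.3 in sorbitol (log2 difference 4.22 ± 0.28, adjusted p = 1.8e-04), with 791 and 858 in NaCl and 42.7 and 28.1 in YPD. HYPBUDRAFT_148171 had 110.3 and 107 FPKM in KCl against 3.80 and 7.15 in sorbitol (4.13 ± 0.25, adjusted p = 1.2e-04), with 97.7 and 98.5 in NaCl and 7.64 and 10.2 in YPD. Both salts stood far above YPD for both genes, while sorbitol overlapped YPD for HYPBUDRAFT_152633 and lay below it for HYPBUDRAFT_148171. HYPBUDRAFT_105838 had 23.1 and 21.9 FPKM in KCl against 515 and 453 in sorbitol (-4.36 ± 0.30, adjusted p = 1.9e-04), with 8.28 and 18.6 in NaCl and 299 and 338 in YPD. HYPBUDRAFT_157712 had 26.5 and 31.4 FPKM in KCl against 479 and 526 in sorbitol (-4.07 ± 0.18, adjusted p = 3.3e-05), with 13.4 and 17.0 in NaCl and 123 and 150.1 in YPD. These last 2 genes were above YPD in sorbitol and below it in both salts.

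Called genes were also looked up by their place in RefSeq's Hypbu1 assembly, made from strain NRRL Y-1933. This was done after the values had been seen, and the order of genes in KJJ43 may differ. Limits of scaffolds were read from drops in start position, which gave 20 scaffolds. Of 5325 pairs of neighbouring members, 26 were both called in the same direction and 10 in opposite directions. Over all members 3.78% were called higher and 2.62% lower, and whether the pairs exceed what these shares give was not tested. The longest run of called neighbours had 5 genes and the next 4, and 3 runs had at least 3. The run of 4 held HYPBUDRAFT_157712, HYPBUDRAFT_242118, DIT2 and DIT1, all lower in KCl. DIT1 and DIT2 make dityrosine for the spore wall of S. cerevisiae. DIT1 had 0.567 and 0.312 FPKM in KCl against 9.89 and 11.5 in sorbitol (-3.03 ± 0.25, adjusted p = 5.6e-04), and DIT2 0.276 and 0.842 against 6.02 and 8.18 (-2.39 ± 0.26, adjusted p = 0.0021). YPD lay between at 1.98 and 3.21 FPKM for DIT1 and 2.85 and 3.02 for DIT2, and NaCl was near KCl at 0.795 and 0.648 and 0.767 and 0.788. HYPBUDRAFT_242118 had 8.16 and 7.12 FPKM in KCl against 82.1 and 79.9 in sorbitol (-3.25 ± 0.33, adjusted p = 0.0017). With 5 FPKM added the differences of DIT1 and DIT2 were -1.53 and -1.12 and their KCl values lay under 1 FPKM. No call in this run was lost on removal of any 1 library.

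The run of 5 held GAL1, GAL10, HYPBUDRAFT_113830, GAL102 and GAL7, all higher in KCl. HYPBUDRAFT_113830 had 15.8 and 17.7 FPKM in KCl against 5.18 and 9.06 in sorbitol (1.17 ± 0.28, adjusted p = 0.046). Beyond GAL1 came SHA3, not called at 3302 and 2204 FPKM in KCl against 3399 and 2472 in sorbitol (-0.10 ± 0.35, adjusted p = 0.91). Next to SHA3 stood HYPBUDRAFT_150021, which rose to 759 and 1083 FPKM in KCl, against 377 and 174 in sorbitol (1.82 ± 0.37, adjusted p = 0.028), and then HYPBUDRAFT_127876, which rose to 7.99 and 8.21 FPKM in KCl, against 3.38 and 3.70 in sorbitol (1.00 ± 0.24, adjusted p = 0.046). On the other side GAL7 was followed by ABP140 (0.33 ± 0.22, adjusted p = 0.44), which was not called. On leaving out 1 library the call did not hold for HYPBUDRAFT_113830 (any 1 of the 8 libraries, adjusted p up to 0.20), HYPBUDRAFT_150021 (KCl 1, KCl 2 or sorbitol 2, adjusted p up to 0.15) and HYPBUDRAFT_127876 (KCl 1, KCl 2, sorbitol 1, sorbitol 2, NaCl 1 or NaCl 2, adjusted p up to 0.18). Overlap between neighbouring transcripts could place fragments of a gene on the next, and whether strand was used in counting is unknown here. Whether such overlap takes part in these runs was not tested.

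**Figure D5:**
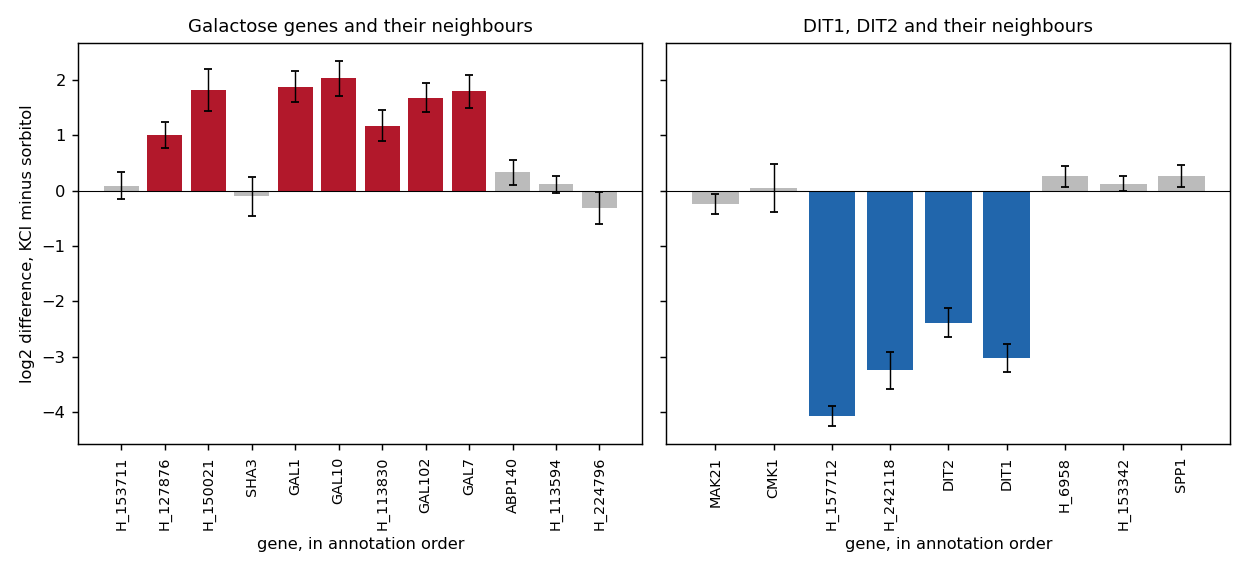
Log2 difference between KCl and sorbitol (bars) with the standard error from limma (whiskers) for genes in annotation order around the galactose genes (left) and around DIT1 and DIT2 (right), where H_ stands for HYPBUDRAFT_. Red bars are called higher in KCl, blue bars lower and grey bars not called, and the 5 genes from GAL1 to GAL7 and the 4 genes up to DIT1 form unbroken runs.

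At the edge of the membership rule, the second-highest of the 4 values was 1.00 FPKM for the gene GH2 just inside it and 0.998 FPKM for HYPBUDRAFT_180310 just outside. Of the 482 genes outside, 216 were at 0 in all 4 libraries.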

How the data were processed

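RNA was measured by sequencing in 8 libraries of H. burtonii KJJ43, of which the 2 KCl and 2 sorbitol libraries were compared. Libraries were made with a directional kit, per the labels' protocols. The authors deposited 1 value per gene and library and used TopHat and Cufflinks, per the submitters' processing notes. The files name no unit, and the deposited values were taken as FPKM from their decimals, sums and steps. No source used here gives versions, a genome build, an annotation, any scaling between libraries or whether strand was used in counting. FPKM are not counts, so no count model was used, and the true depth is unknown. Columns that belong to no sample numbered 0.

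Genes with at least 1 FPKM in 2 of the 4 libraries were kept, 1 FPKM was added and values were taken to log2. A linear model with a term for each of the 4 media was fitted to all 8 libraries with limma 3.58.1 in R 4.3.3, with an intensity trend, which left 4 residual degrees of freedom. P-values were adjusted by Benjamini-Hochberg over 5684 genes and called under 0.05. Scripts were checked on simulated data. Genes were paired with symbols through RefSeq, with 6157 of 6166 genes matched by locus tag. Genes described with values were the 12 largest called rises and falls with a symbol, all genes of the cation and polyol lists, called genes with the largest differences in the other lists, HOG1, and the 2 largest rises and falls without a symbol. The largest rises and falls were picked among genes whose KCl and sorbitol libraries did not overlap, which all 364 called genes met. PIR1 was added to these. The members and lists were chosen with earlier results of these data known, and the look at neighbouring genes was added after the values were seen. Alternatives were other pseudocounts, filters and scalings, other fits, and the removal of each library.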

Additional observations from a re-analysis of the deposited data

How the results depend on the processing

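The counts of 215 genes higher and 149 lower in KCl stayed within 1.5 times under the other pseudocounts, filters and scalings and without the intensity trend. They ranged from 37 to 155 higher and from 29 to 113 lower on removal of 1 library. The lowest counts came without sorbitol 2, where all 66 called genes were among the 364, and without KCl 2, where 65 of 70 were. The fit of the 4 KCl and sorbitol libraries alone gave 44 higher and 46 lower, all 90 among the 364. Quantile normalization called 289 genes, of which 252 were among the 364. The sign was compared over all 364, whether or not quantile normalization called them, and it changed for 1.

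Replicate numbers are shared across media in the labels, but nothing says that a number marks a common batch. Deviations of same-numbered libraries from their group means correlated at 0.509 between KCl and sorbitol, 0.382 between KCl and NaCl, 0.346 between sorbitol and YPD, 0.166 between KCl and YPD, 0.116 between sorbitol and NaCl and 0.0035 between NaCl and YPD. With 2 numbers and no label on their meaning, the numbers were not taken to pair libraries. With the replicate number as a block, 331 genes were higher and 225 lower, with all 364 among them. HAK1 (adjusted p = 0.042, limma) and XKS1 (0.041) were called with the block and not without it.

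Among genes that were not called, the log2 difference changed sign for PMA1 (0.084), TRK1 (-0.16) and ALD6 (-0.044) under quantile normalization. On removal of 1 library the log2 difference of uncalled genes crossed 0 for CCH1 (-0.31 to 0.049), PMC1 (-0.072 to 0.45), VCX1 (-0.17 to 0.43), GUT2 (-0.071 to 0.21), GPD2 (-1.71 to 0.077), ALD6 (-0.032 to 0.20) and DAK2 (-0.079 to 0.52). The medians of the cytosolic ribosomal proteins (0.027) and of the tricarboxylic acid cycle and respiration (0.027) changed sign under quantile normalization. So did the smaller medians of metal uptake (0.046 to -0.094) and amino acid and peptide transport (0.069 to -0.019). Those of sulfate assimilation and methionine (-0.016 to 0.048) and of mating, hyphal growth and adhesion (0.0053 to -0.062) turned as well. The causes were not tested. With 2 libraries per medium and no counts, differences in genes of low FPKM depended on the pseudocount, and genes not called are not shown to be equal between the media.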
